A study of Bos taurus with 2 samples.

Results

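The genes described here encode 6 secreted proteins of innate defence: LTF (ENSBTAG00000001292), LPO (ENSBTAG00000012780), LCN2 (ENSBTAG00000014149), SAA3 (ENSBTAG00000049589), WFDC2 (ENSBTAG00000013928) and SLPI (ENSBTAG00000004148). They were taken by symbol from the 27270 genes of the files, where each had its own row, and followed across barcodes sorted by raw UMIs (unique molecular identifiers, each counting 1 captured RNA molecule) of lineage marker genes. The genes had been chosen by their measured UMI levels in earlier results of these data, which placed them in luminal epithelium and SAA3 in newborn fibroblasts as well. Levels in those cells are therefore a description, with no test.

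The mammary gland of Holstein cattle was dissociated and its cells sequenced singly, giving 1 adult library, taken in lactation, and 1 newborn library. No genetic change or treatment is given for either library, and no age beyond these stages. Whether a library came from 1 animal or several is not stated. Tissue was freed of fat, digested with enzymes and strained, so that fat cells and cells that resist digestion can be lost. The adult library held 85388618 UMIs in 15897 barcodes and the newborn library 65597671 UMIs in 13772 barcodes, with medians of 2723 and 4581 UMIs. A stage is a single library, so animal, handling and library cannot be told apart from stage, no p-value is given, and all intervals are 95% intervals that cover counting error only.

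Milk and the ducts that carry it are guarded by proteins that the epithelium makes itself. Lactoferrin (LTF) binds iron and so withholds it from bacteria, lactoperoxidase (LPO) makes antimicrobial oxidants from thiocyanate and hydrogen peroxide, and lipocalin (LCN2) traps the siderophores with which bacteria collect iron. Serum amyloid A (SAA3) is an acute phase protein that many tissues outside the liver can make. WFDC2 and SLPI are small proteins with whey acidic protein domains, and SLPI inhibits neutrophil elastase and other serine proteases. All of them are known as products of epithelia that line ducts or airways, and several rise in the udder during mastitis.

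Barcodes were named by marker UMIs, none of them from the 6 genes. Epithelial barcodes, which held at least 10 UMIs of at least 3 of 8 keratin, claudin and adhesion genes, were divided by BTN1A1 and XDH, which encode proteins of the milk fat globule membrane. The adult library gave 387 luminal non-secreting barcodes with at most 2 UMIs of this pair, 246 milk-secreting barcodes with at least 5 UMIs and both genes seen, and 231 intermediate ones. It also gave 211 fibroblast, 2399 endothelial, 6457 T or NK, 91 B or plasma, 172 macrophage or monocyte, 509 neutrophil and 287 mast barcodes. The newborn library gave 11744 fibroblast, 207 mast, 85 T or NK, 80 endothelial, 23 neutrophil, 10 macrophage or monocyte and 5 B or plasma barcodes. Of 13710 newborn barcodes 0 were epithelial by these rules, which allows a share of up to 0.0219%, so the epithelium is described in the adult alone. Barcodes of several lineages (7.91% of adult and 1.57% of newborn ones) were left out as possible doublets, and 57 barcode sequences occurred in both libraries.

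The names were checked on marker genes that had not been used to assign them. A list of 9 epithelial genes stood at 3318 CPM (counts per 1000000 UMIs of the same barcodes) in luminal and 1494 CPM in milk-secreting barcodes, against 154 CPM in adult T or NK barcodes. A list of 10 fibroblast genes stood at 9853 CPM in adult and 4206 CPM in newborn fibroblast barcodes, against 16.1 and 160 CPM in the T or NK barcodes of the same libraries. A further 34 adult barcodes combined the keratins KRT5, KRT14 and KRT17 with contractile genes. They held KRT19 at 9141 CPM and KRT8 at 1633 CPM, keratins of luminal cells, beside KRT5 at 1789 CPM and only 26.6 CPM of KRT14, so they are called by their rule and not basal cells.

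The label of an epithelial defence set held for part of the genes. LTF, LCN2, SAA3 and WFDC2 were high in luminal barcodes, and LPO only where milk genes were high. SLPI was highest in fibroblasts of both libraries, though in the adult 51 of its 58 UMIs there came from 3 barcodes. On the SAA3 row alone, newborn fibroblasts held 4344 CPM, above every adult group, of which intermediate epithelial barcodes had the highest level at 3118 CPM. The related row M-SAA3 stood at 4911 CPM in intermediate and 5841 CPM in keratin and contractile barcodes, against 16.0 CPM in newborn fibroblasts. With both rows counted, these adult groups stood above newborn fibroblasts. How reads were divided between the rows is not known, so the order is that of the SAA3 row only.

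**Figure D1:**
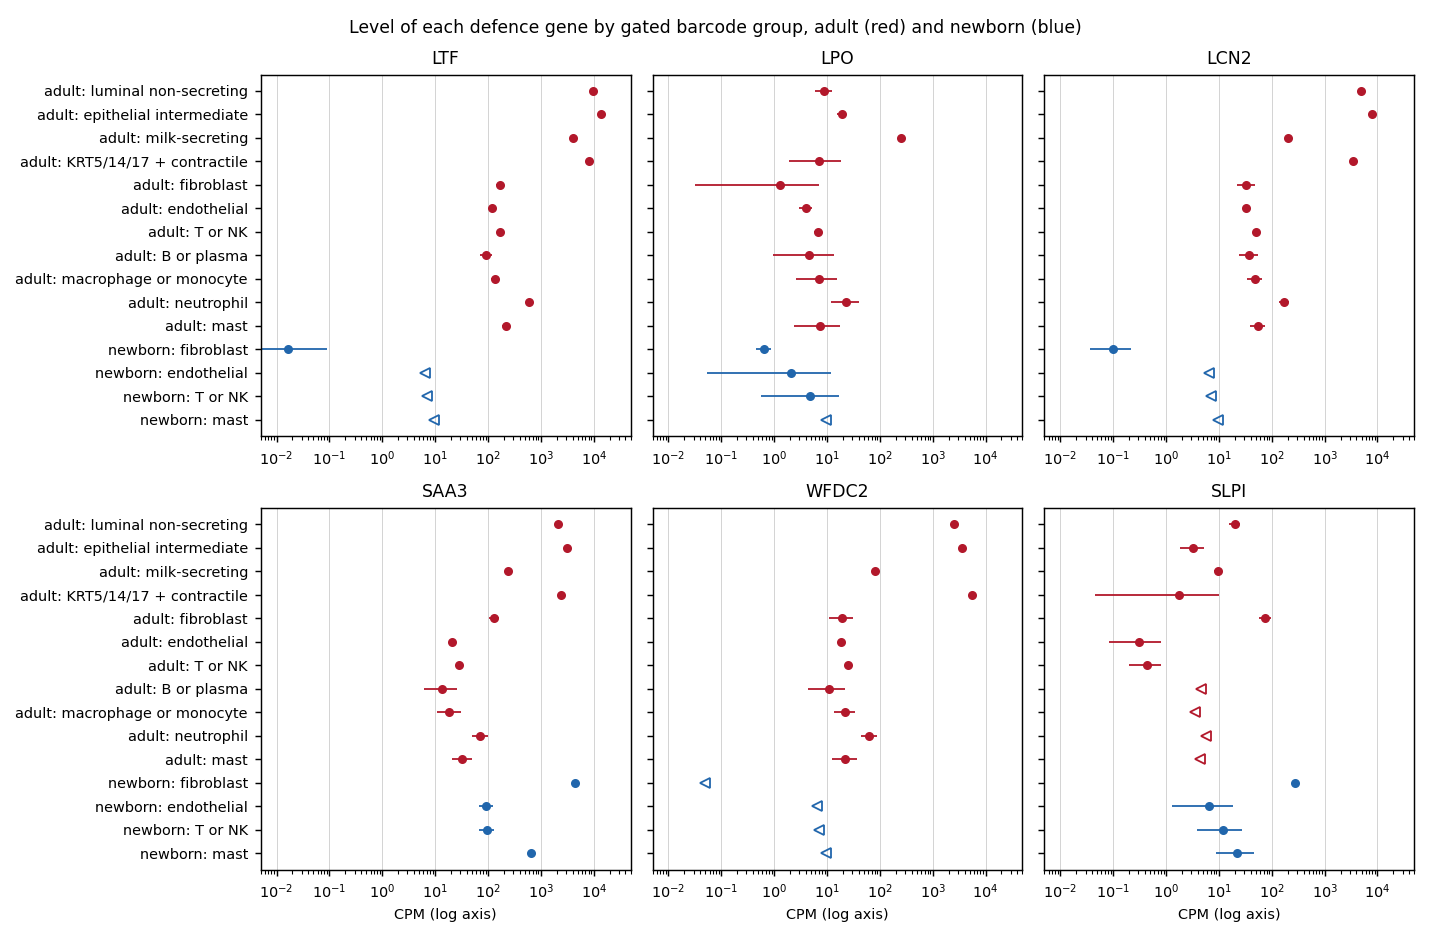
Level of each gene in each group of barcodes on a log axis of CPM, with adult groups in red and newborn groups in blue. Points are summed UMIs, bars exact Poisson intervals (the lower end for LTF in newborn fibroblasts leaves the axis), and open triangles mark the limit of 3 UMIs where none was counted. LTF, LCN2 and WFDC2 are high in adult epithelial groups and near or at 0 in the newborn, while the newborn fibroblast level of SAA3 (4344 CPM) and SLPI (277 CPM) is the highest of their panels. SAA3 values are those of its own row, without the related M-SAA3.

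LTF was found in 89.1% of luminal and 99.6% of milk-secreting barcodes. It stood at 13639 CPM (13535 to 13743) in intermediate, 9710 CPM (9602 to 9818) in luminal, 8292 CPM (8056 to 8534) in keratin and contractile, and 4148 CPM (4114 to 4182) in milk-secreting barcodes, with no overlap of neighbouring intervals. These intervals leave out the spread between barcodes. Medians over barcodes were 13456, 4182, 6686 and 1885 CPM in the same order of groups, with luminal below keratin and contractile barcodes. The remaining adult groups lay between 91.7 CPM in B or plasma and 610 CPM in neutrophil barcodes. T or NK barcodes, from cells not known for lactoferrin, still gave 167 CPM and a UMI in 39.4% of barcodes, in a library where milk protein genes made up 2.34% of their UMIs. With every barcode drawn down to 1000 UMIs, 70.5% of luminal barcodes (65.5 to 75.1) and 16.9% of T or NK barcodes (16.0 to 17.9) kept a UMI of LTF.

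Neutrophils store lactoferrin and lipocalin proteins in their granules, and their barcodes stood above T or NK barcodes in CPM. Per barcode the difference was small, with 0.621 LTF UMIs in neutrophil and 0.543 in T or NK barcodes, and 0.173 against 0.167 UMIs of LCN2. At 1000 UMIs, which 155 of 509 neutrophil barcodes reached, 45.8% of them held LTF against 16.9% of T or NK barcodes. The neutrophil barcodes were shallow, with a median of 876 UMIs against 2837, and held 7.31% milk protein UMIs. LTF was counted 3.59 times per LCN2 UMI in neutrophil, 3.25 times in T or NK and 3.56 times in endothelial barcodes. In the other adult groups outside the epithelium, each with fewer than 150 LTF UMIs, the number ran from 2.5 in B or plasma to 5.15 in fibroblast barcodes, with 2.85 in macrophage or monocyte and 3.97 in mast barcodes. In luminal barcodes it was 2.01 and in milk-secreting ones 20.4.

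LPO followed milk secretion. It stood at 253 CPM (244 to 261) in milk-secreting barcodes and at 18.8 CPM (15.2 to 23.1) in intermediate ones. Luminal barcodes had 8.75 CPM (5.82 to 12.6), which overlapped the 6.88 CPM (5.80 to 8.10) of T or NK barcodes. A UMI of LPO was found in 91.9% of milk-secreting barcodes against 5.17% of luminal and 2.17% of T or NK ones, at median depths of 49806, 7528 and 2837 UMIs. At 1000 UMIs per barcode the shares were 17.5%, 1.08% and 0.957%. The newborn fibroblasts held 39 UMIs of LPO (0.643 CPM), below the 4.72 CPM of newborn T or NK barcodes, which rests on 2 UMIs.

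LCN2 and WFDC2 were high in the non-secreting and intermediate epithelium. LCN2 stood at 7955 CPM (7876 to 8034) in intermediate, 4839 CPM (4763 to 4916) in luminal and 3436 CPM (3284 to 3592) in keratin and contractile barcodes, and at 203 CPM (195 to 211) in milk-secreting ones, where its interval overlapped that of neutrophil barcodes (170 CPM). Its median over barcodes was 354 CPM in luminal and 1392 CPM in keratin and contractile barcodes, the reverse of their summed levels. WFDC2 had another order, with 5459 CPM (5268 to 5655) in keratin and contractile, 3528 CPM (3476 to 3581) in intermediate and 2569 CPM (2514 to 2625) in luminal barcodes. Milk-secreting barcodes held 79.3 CPM (74.7 to 84.2) of WFDC2, again overlapping neutrophil barcodes (63.7 CPM). Both overlaps are of plain CPM, which milk protein UMIs lower in milk-secreting barcodes. With milk protein genes left out of the totals, these held 806 CPM of LCN2 and 315 CPM of WFDC2. Neutrophil barcodes then held 183 and 68.7 CPM. Of thinned luminal barcodes, 48.5% kept a UMI of LCN2 and 47.2% of WFDC2, against 5.52% and 2.52% of T or NK barcodes. The whole newborn library held 9 UMIs of LCN2, 2 of LTF and 1 of WFDC2 in 13710 kept barcodes.

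SAA3 stood at 3118 CPM (3069 to 3168) in intermediate, 2418 CPM (2291 to 2550) in keratin and contractile and 2075 CPM (2026 to 2126) in luminal barcodes. Milk-secreting barcodes had 237 CPM (229 to 245), adult fibroblasts 131 CPM (106 to 158) and T or NK barcodes 27.9 CPM (25.7 to 30.3). Among luminal barcodes SAA3 was uneven, since the 10% of barcodes with most UMIs held 83.7% of its 6640 UMIs. The same share was 42.9% for LTF, 55.1% for LCN2 and 65.2% for WFDC2.

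SLPI was low in the epithelium. Its 64 UMIs in luminal barcodes (20.0 CPM, 15.4 to 25.5) included 55 in 1 barcode, and only 10 of 387 luminal barcodes held any. Milk-secreting barcodes had 131 UMIs (9.58 CPM, 8.01 to 11.4) spread over 49 of 246 barcodes. With milk protein genes left out of the totals they stood at 38.0 CPM, against 75.9 CPM in adult fibroblasts. The highest adult level was in fibroblasts, at 74.2 CPM (56.4 to 95.9), but 51 of these 58 UMIs came from 3 barcodes and 37 from 1. Without the 3 the level was 9.12 CPM, no longer above that of luminal or milk-secreting barcodes with all of theirs kept. The 3 highest luminal barcodes held 57 of the 64 UMIs there, and the 3 highest milk-secreting ones 32 of 131. Levels without these were not computed, so no order of the groups is given without their highest barcodes. SLPI had 0 UMIs in adult B or plasma, macrophage or monocyte, neutrophil and mast barcodes, where a count of 0 allows at most 5.79 CPM, and 0.430 CPM in T or NK barcodes.

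The luminal genes stood far above their level in T or NK barcodes of the same library. Of the 6 genes, 4 were measured in this comparison, meaning that the group with more of the gene held 50 CPM and 20 UMIs or more. All 4 were at least 4-fold higher in luminal barcodes, as were 17.4% of the 2863 genes measured, while 0 members and 10.5% of genes were lower. SAA3 (27.9 CPM in T or NK barcodes) and WFDC2 (25.4 CPM) passed the 50 CPM limit only through luminal barcodes. The members were chosen by their levels in these data, so this count of members and those of later comparisons describe and do not test. The ratio was 58.0 (56.0 to 60.1) for LTF, 94.1 (88.4 to 100.2) for LCN2, 74.3 (68.2 to 81.0) for SAA3 and 101 (92.8 to 111) for WFDC2. LPO and SLPI were under the limit. A list of 64 other defence genes of milk and mucosa, 57 of them in the files, had 14 measured genes, of which 12 were higher and 1 lower. Its median log2 ratio was 4.46, beside 0.24 for all genes measured.

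Against T or NK barcodes, 3 of 5 measured members were at least 4-fold higher in milk-secreting barcodes (LPO, LTF and SAA3), as were 5.41% of 2087 genes, while 61.8% of genes were lower. Milk protein genes made up 74.8% of all UMIs in these barcodes and 3.63% in luminal ones, which lowers the CPM of every other gene there. The comparison of luminal with milk-secreting barcodes was therefore read mainly with the 7 milk protein genes left out of the totals, beside UMIs per barcode.

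On that scale LPO was 111-fold (76.4 to 167) lower in luminal than in milk-secreting barcodes, with 9.08 against 1004 CPM. LCN2 was 6.23-fold (5.98 to 6.49) and WFDC2 8.46-fold (7.94 to 9.02) higher in luminal barcodes, and SAA3 2.29-fold (2.19 to 2.39). LTF was 1.64-fold (1.61 to 1.66) lower in luminal barcodes, at 10076 against 16478 CPM. Of 5 measured members 2 were past 4-fold higher and 1 past 4-fold lower, as were 6.18% and 4.89% of the 2865 genes measured. SLPI, with 64 UMIs in luminal and 131 in milk-secreting barcodes, was under the limit.

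Plain CPM gave another picture for LTF, which then stood 2.34-fold (2.31 to 2.37) higher in luminal barcodes. The ratio of LCN2 was then 23.8, of WFDC2 32.4 and of SAA3 8.76, and LPO was 28.9-fold lower. On this scale 3 of 5 measured members were past 4-fold higher and 1 lower, against 58.6% and 1.55% of 2391 genes, and the median ratio of all genes measured was 4.56, so that the 3 higher calls lie near the background. Milk-secreting barcodes held 231 LTF UMIs each and luminal ones 80.3, at median depths of 49806 and 7528 UMIs. LCN2 went the other way even per barcode, with 11.3 UMIs in milk-secreting and 40.0 in luminal barcodes, and so did WFDC2 with 4.41 and 21.2 UMIs and SAA3 with 13.2 and 17.2. Where barcodes were called milk-secreting from a milk protein share of 20% instead, the plain ratio of LCN2 was 177 and that of WFDC2 239.

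Other defence genes divided in the same comparison. With milk protein genes left out, 5 of 17 measured genes were higher in luminal barcodes and 7 lower, beside 6.18% and 4.89% of all genes measured. The median log2 ratio was -1.62, beside 0.08 for all genes. The higher ones were GPX3, a secreted glutathione peroxidase (21.4-fold), HP, the haemoglobin-binding haptoglobin (21.0-fold), S100A9, a calprotectin subunit (13.9-fold), CLU, the chaperone clusterin (5.25-fold), and the chitinase-like CHI3L1 (4.58-fold). Lower ones included the mucins MUC15 (54.2-fold) and MUC1 (33.7-fold), TFF3, a trefoil peptide (16.8-fold), and XDH (17.6-fold), which had been used to divide the groups. PIGR, the receptor that carries IgA into milk, and the ribonuclease genes ANG2 and RNASE4 were 14.4-fold, 17.1-fold and 7.35-fold lower. They did not pass on plain CPM, where CFB, a complement factor, did at 11.1-fold higher.

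Of 28 genes of NF-kB and IL-17 signalling, which drive defence genes in many epithelia, 18 were measured with milk protein genes left out. Of these 1, the monocyte attractant CCL2, was past 4-fold higher in luminal barcodes (62.1-fold, with 1780 UMIs against 32), and 0 were lower. Over all genes measured the shares were 6.18% and 4.89%. On plain CPM 8 of 17 passed, as did 58.6% of all genes measured. They were CCL2, CXCL2, NFKB2, ZC3H12A, BIRC3, NFKB1, RELB and CXCL8. The list's median log2 ratio of 1.99 lay below the 2.19 of all genes measured.

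Finer classes of BTN1A1 and XDH showed where the genes parted. From barcodes with 0 UMIs of the pair to those with 20 or more, the milk protein share ran from 2.68% to 77.4%. LPO went from 0.0558 to 19.4 UMIs per barcode. LTF went from 36.9 UMIs per barcode at 0, through 125, 211, 278 and 320, to 254 at 20 or more. LCN2 was counted 18.8, 62.0, 120, 152 and 101 times per barcode in the first 5 classes and 2.37 times in the last. WFDC2 followed with 15.9 UMIs at 0, 66.8 at 5 to 9, 47.2 at 10 to 19 and 0.769 at 20 or more. SAA3 had 5.34 UMIs at 0, 62.7 at 10 to 19 and 8.22 at 20 or more. The classes differed in depth, from a median of 6135 to 70954 UMIs, so a drop in the last class ran against depth and the rise before it ran with depth.

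**Figure D2:**
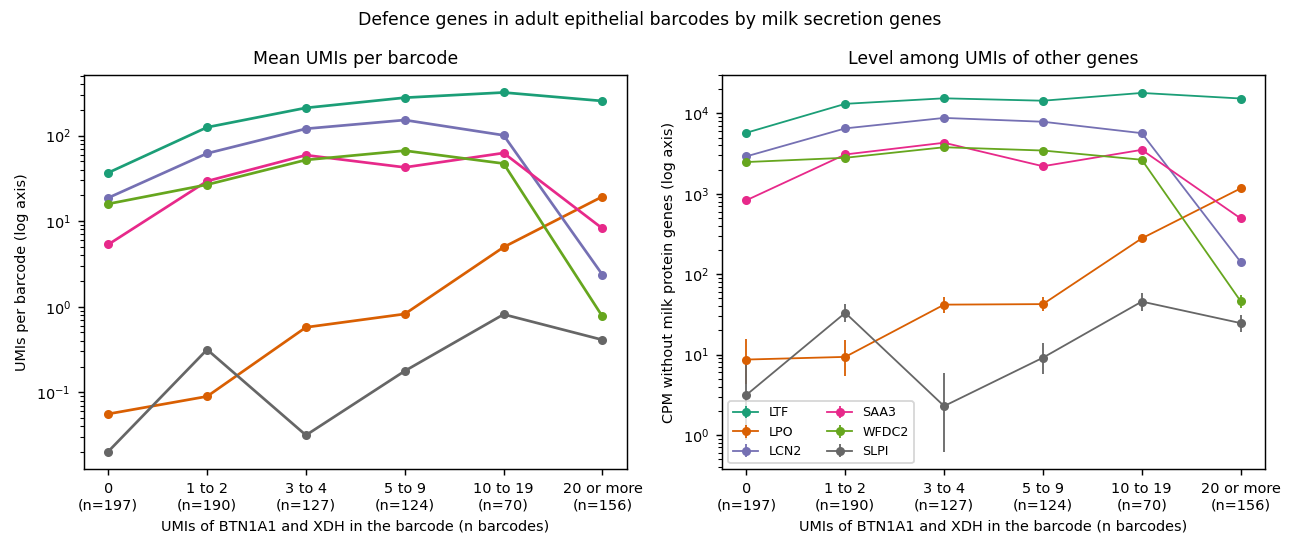
Mean UMIs per barcode (left) and CPM with milk protein genes left out of the totals (right), both on log axes, in adult epithelial barcodes classed by their UMIs of BTN1A1 and XDH; bars on the right are exact Poisson intervals. In the last class LPO is at its highest with 19.4 UMIs per barcode, LTF is at 254, and LCN2 and WFDC2 are at their lowest with 2.37 and 0.769.

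With milk protein genes left out, LTF stood between 13110 and 17905 CPM in all classes with at least 1 UMI of the pair, and at 5729 CPM at 0. LCN2 stood at 5661 CPM at 10 to 19 UMIs and 142 CPM at 20 or more, and WFDC2 at 2644 and 46.2 CPM. LPO was at 279 and 1165 CPM in these classes, and SAA3 at 3512 and 493 CPM. The last class was high in LTF and LPO and low in LCN2, WFDC2 and SAA3. Within all 246 milk-secreting barcodes, the 10% with most UMIs held 92.0% of the LCN2, 96.5% of the SAA3 and 92.8% of the WFDC2 UMIs, but 46.3% of the LTF and 28.6% of the LPO UMIs.

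Luminal cells of the mammary gland are commonly divided into hormone-sensing cells and progenitors of the milk-secreting line. Of the 387 luminal barcodes, 133 held at least 2 UMIs of ESR1, PGR, FOXA1 and TBX3, 180 held at least 2 UMIs of KIT, ELF5 and ALDH1A3, 33 of these held both and 107 neither. These make 4 groups without overlap, with progenitor markers alone (147 barcodes), hormone-sensing markers alone (100), both and neither. LTF stood at 16880 CPM (16665 to 17096) with progenitor markers alone, 9197 CPM (8951 to 9447) with both, 4029 CPM (3840 to 4225) with neither and 411 CPM (368 to 458) with hormone-sensing markers alone. LCN2 followed the same order at 8377, 4709, 2184 and 83.2 CPM, as did WFDC2 at 4191, 2908, 982 and 294 CPM and SAA3 at 3864, 1450, 823 and 30.3 CPM. SLPI was at 73.1 CPM with hormone-sensing markers alone, where 55 of its 58 UMIs were in 1 barcode, and between 2.14 and 3.46 CPM in the other 3 groups.

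The size of the difference turned on the 33 barcodes with both sets of markers, which held 5322 of the 5648 LTF UMIs counted with hormone-sensing markers. With these barcodes counted in both groups, progenitor over hormone-sensing ratios were 3.56 for LTF, 3.59 for LCN2, 2.73 for WFDC2 and 5.02 for SAA3. With them left out of both, a choice made after seeing the data, the ratios were 41.1 (36.8 to 46.0), 101 (79.1 to 130), 14.3 (12.5 to 16.3) and 128 (85.7 to 199) in the same order. The lower level of SAA3 rested on 24 UMIs (30.3 CPM, 19.4 to 45.0), beside 27.9 CPM in T or NK barcodes. For LCN2 it was 83.2 beside 51.4 CPM, so both ratios are close to ratios over the T or NK level. LTF (411 beside 167 CPM) and WFDC2 (294 beside 25.4 CPM) stood further above that level. Median depth differed between the groups, at 10256 UMIs with progenitor markers alone, 7410 with hormone-sensing markers alone, 15489 with both and 3226 with neither. At 1000 UMIs per barcode the ratios without the barcodes of both sets were 41.0, 156, 20.3 and 73.9. Where barcodes were called non-secreting from a milk protein share under 20%, the 4 ratios were 21.0, 84.2, 14.9 and 45.0 without the barcodes of both sets, and 1.61, 1.55, 1.49 and 1.86 with them.

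The 4 luminal genes tended to be counted in the same barcodes. Of 369 luminal barcodes thinned to 1000 UMIs, 72 held all of LTF, LCN2, SAA3 and WFDC2, 89 held 3, 46 held 2, 68 held 1 and 94 held 0. LTF and LCN2 were found together in 47.7% of these barcodes, where their separate shares would give 34.2% if independent. Across 387 luminal barcodes, which share a library and differ in depth, scaled levels of LTF correlated with LCN2 (Pearson r = 0.82) and WFDC2 (r = 0.76), LCN2 with WFDC2 (r = 0.72) and, less closely, SAA3 with LTF (r = 0.58). Over the 11 adult groups, which share a library, the genes most like LTF in log2(CPM + 1) were SPP1, KRT19 and AZGP1 (r = 0.99, 0.99 and 0.98). For LCN2 they were PRSS22, CYP11A1 and SHROOM3 (all 0.99), for WFDC2 M-SAA3, KRT15 and SHROOM3 (all 0.99), and for SAA3 ELF3, BTC and MGST1 (0.99, 0.98 and 0.98). LPO was most like CSN3, a casein, SLC27A6 and HSTN (0.94, 0.91 and 0.90), and SLPI most like GLT8D2, NT5E and GPRC5A (0.89, 0.89 and 0.88), each with its highest level in fibroblasts.

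SAA3 belongs to a cluster of related amyloid genes, whose sequences were not compared here. In the RefSeq annotation it neighbours SAA2 and SAA4, and the files hold a further row, M-SAA3 (ENSBTAG00000054278), named for the mammary gland. The sources used here do not say how reads of such related genes were divided, so the level of each row and the proportion of the rows are both uncertain. Whether reads were divided alike in both libraries was not tested. The rows of M-SAA3, SAA2 and SAA4 were added after the values had been seen.

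SAA3 made up 36.0% (35.4 to 36.7) of the UMIs of SAA3 and M-SAA3 in luminal, 38.8% (38.4 to 39.3) in intermediate and 29.3% (28.0 to 30.6) in keratin and contractile barcodes. In milk-secreting barcodes it was 52.8% (51.5 to 54.0), and in T or NK barcodes 40.5% (37.9 to 43.0). Adult fibroblasts had 80.3% (72.3 to 86.8), from 102 UMIs of SAA3 and 25 of M-SAA3, and newborn fibroblasts 99.6%, from 263521 UMIs of SAA3 and 971 of M-SAA3. The adult fibroblast share rested on few barcodes, and without the 3 that held most SAA3 it was 61.5% (48.6 to 73.3), from 40 UMIs of SAA3 and 25 of M-SAA3. In adult fibroblasts the M-SAA3 level was 32.0 CPM, beside 41.1 CPM in T or NK barcodes. SAA4 and SAA2 gave 143 and 10 UMIs in newborn fibroblasts and 0 in adult fibroblasts.

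**Figure D3:**
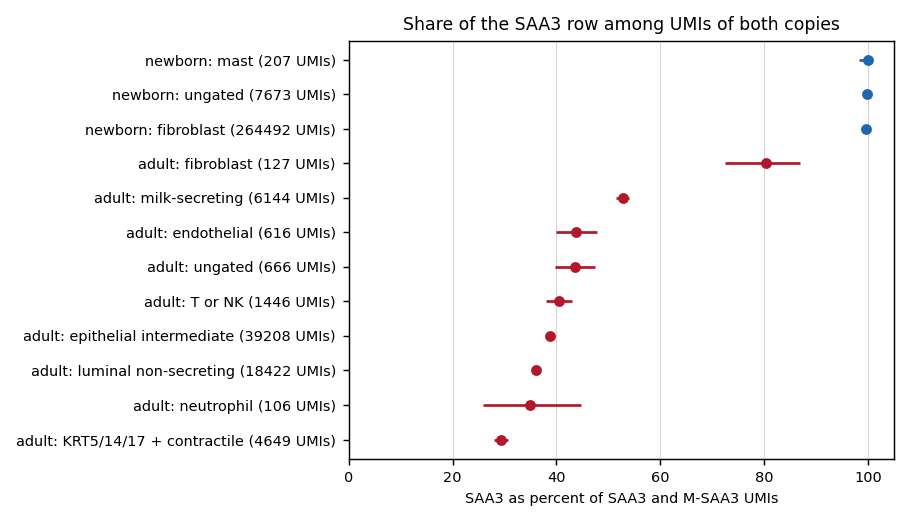
SAA3 UMIs as a percentage of the UMIs of SAA3 and M-SAA3 in groups with at least 100 such UMIs, with exact Clopper-Pearson intervals and the number of UMIs in brackets. Newborn groups lie near 100%, adult fibroblasts at 80.3% (61.5% without the 3 barcodes with most SAA3) and adult epithelial groups between 29.3% and 52.8%.

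In the newborn library SAA3 was a fibroblast gene. Newborn fibroblasts held 263521 UMIs (4344 CPM, 4327 to 4360) in 55.2% of 11744 barcodes, or 32.3% (31.4 to 33.2) at 1000 UMIs per barcode. T or NK barcodes of the same library had 94.3 CPM (67.4 to 128), with a UMI in 32.9% of barcodes at a median of 4400 UMIs against 4889 in fibroblasts, and 7.06% at 1000 UMIs. Endothelial barcodes stood at 93.3 CPM. Mast barcodes stood higher, at 661 CPM (574 to 757), with a mean of 1.00 UMI per barcode at a median depth of 1390 UMIs. The mean was uneven, since 25.6% of mast barcodes held a UMI, or 21.1% at 1000 UMIs, and the highest stood at 23528 CPM. Against newborn T or NK barcodes, SAA3 was 46.1-fold (33.8 to 64.5) and SLPI 23.5-fold (10.1 to 72.3) higher in fibroblasts. These were the 2 measured members, both past 4-fold, as were 19.2% of 2870 genes, while 0 members and 14.6% of genes were lower. SLPI passed the 50 CPM limit only through fibroblasts, and SAA3 had been chosen in part for its level there.

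SAA3 was spread unevenly over newborn fibroblasts. No UMI was found in 44.8% of barcodes, the median was 1 UMI, the highest barcode held 1039, and the 10% of barcodes with most UMIs held 87.2% of the total. SLPI, at 16792 UMIs (277 CPM, 273 to 281), was found in 7.76% of barcodes, or 3.41% at 1000 UMIs. Its highest barcode held 497 UMIs. SLPI stood at 11.8 CPM (3.83 to 27.5) in newborn T or NK barcodes.

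Adult fibroblasts gave much lower SAA3, on few barcodes. SAA3 was 33.3-fold (27.4 to 40.8) higher in newborn than in adult fibroblasts, at 4344 against 131 CPM, and SLPI 3.73-fold (2.88 to 4.91) higher, at 277 against 74.2 CPM. Of 3 measured members 1, SAA3, was past 4-fold higher in the newborn and 1, LTF, past 4-fold lower, as were 3.04% and 6.65% of 3129 genes. Both ratios rested on few adult barcodes. Without the 3 adult barcodes with most UMIs of the gene, left out after seeing the data, SLPI stood at 9.12 CPM in the adult and the ratio was 30.3 (14.7 to 75.5), past 4-fold, while SAA3 stood at 52.4 CPM with a ratio of 82.9 (60.9 to 116). The newborn levels without their own 3 highest barcodes were 259 and 4296 CPM. The LTF level in adult fibroblasts (171 CPM) matched that of adult T or NK barcodes within counting error (ratio 1.02, 0.856 to 1.22), and newborn fibroblasts held 1 UMI. WFDC2 had 0 UMIs in newborn fibroblasts, which allows at most 0.0494 CPM.

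Of the 102 SAA3 UMIs in adult fibroblasts, 62 came from 3 of 211 barcodes, which leaves 40 UMIs in the other 208. Against T or NK barcodes of the adult library, SAA3 was 4.67-fold (3.75 to 5.77) and SLPI 173-fold (85.0 to 396) higher in adult fibroblasts. Without the 3 barcodes highest in the gene the ratios were 1.88 (1.33 to 2.59) for SAA3, under 4-fold, and 21.2 (6.72 to 64.0) for SLPI. These were 2 of 4 measured members past 4-fold higher, as were 25.4% of 3369 genes, while 0 members and 9.32% of genes were lower. SAA3 was under 4-fold with barcodes of several lineages kept (3.67) or with median of ratios scaling (2.75). The stage ratio of SAA3 was 52.8 with median of ratios scaling, and that of SLPI 2.06 at 1000 UMIs per barcode and 5.92 with median of ratios scaling.

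The NF-kB and IL-17 list gave 21 measured genes between the fibroblasts. Of these 5 were past 4-fold higher in the newborn and 1 lower, beside 3.04% and 6.65% of all 3129 genes measured. With median of ratios scaling the counts over all genes went from 95 to 224 higher and from 208 to 67 lower. The list was not counted on that scale. PTX3, a secreted pattern recognition protein, was 27.4-fold higher (18331 against 668 CPM). BIRC3, an inhibitor of apoptosis and NF-kB target, was 5.75-fold, the NF-kB subunits NFKB2 and RELB 4.76-fold and 4.71-fold, and the transcription factor gene CEBPD 4.44-fold higher. TLR4, the receptor for bacterial lipopolysaccharide, was 6.08-fold lower. The list's median log2 ratio was 0.62, beside -0.49 for all genes. Of 7 measured genes of the other defence list 0 were higher and 1 lower, the complement gene C3 at 41.1 against 403 CPM, named here because it was the single call. A count of 1 in 7 is too small to read against the share of all genes.

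In summed CPM, SAA3 and SLPI went in opposite directions in the PI16, adipogenic and POSTN subsets of the newborn fibroblasts, and in the same direction in the contractile one. Barcodes with at least 2 UMIs of PI16, CLEC3B and DPP4, markers of adventitial fibroblasts, numbered 9191. They held SAA3 at 3576 CPM (3560 to 3592) against 8835 CPM (8773 to 8897) in the 2553 others, at median depths of 5254 and 3471 UMIs. A UMI of SAA3 was found in 54.5% of barcodes inside and 57.6% outside, much closer than the summed levels. SLPI stood at 322 CPM (317 to 327) inside this subset and 13.9 CPM (11.5 to 16.6) outside it, a ratio of 23.2 that was 11.3 at 1000 UMIs per barcode. Barcodes with adipogenic markers (PPARG, FABP4 and LPL) showed the reverse, with SAA3 at 5227 against 4042 CPM and SLPI at 82.8 against 343 CPM.

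POSTN, a matrix protein of activated fibroblasts, marked 883 barcodes with SLPI at 560 CPM inside and 244 CPM outside, and SAA3 at 3548 against 4436 CPM. The 282 barcodes with contractile markers (CNN1, DES, OXTR and MYLK) had SAA3 at 1776 CPM, against 4435 CPM in the others, and SLPI at 198 against 280 CPM. Shares of barcodes with a UMI of SAA3 did not follow these levels. They were 58.8% inside and 54.9% outside the POSTN subset, and 56.0% inside and 55.1% outside the contractile one. At least 3 UMIs of the dividing cell markers MKI67, TOP2A, CENPF and UBE2C were found in 0 of 11744 barcodes, which allows a share of up to 0.0255%. The subsets overlap and come from 1 library, and the lowest SAA3 level among the named ones was the 1776 CPM of contractile barcodes.

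**Figure D4:**
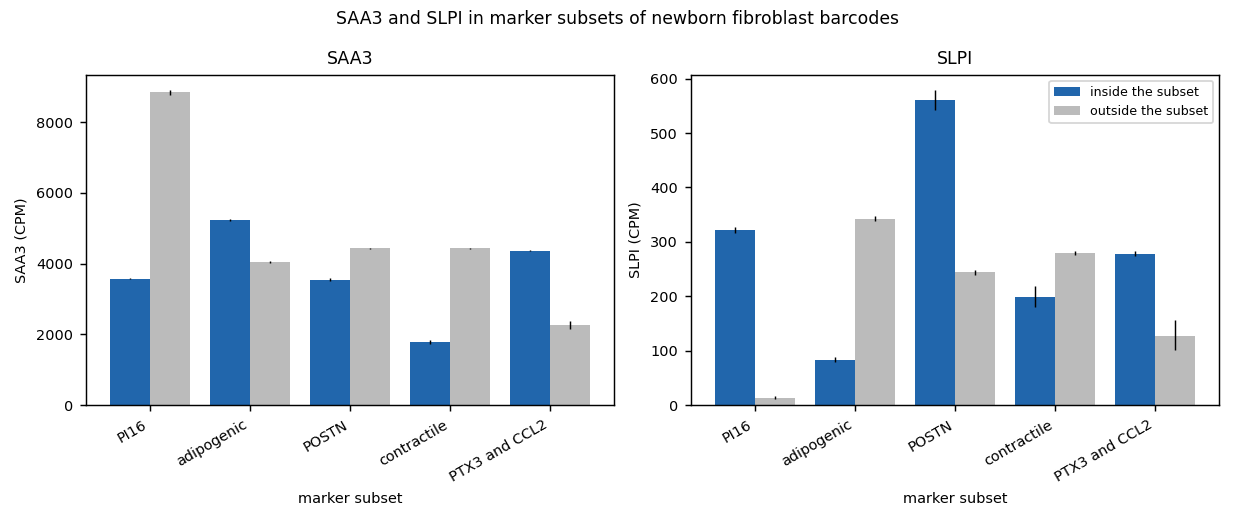
SAA3 (left) and SLPI (right) in CPM in newborn fibroblast barcodes inside (blue) and outside (grey) each marker subset, with exact Poisson intervals. SAA3 is lower and SLPI higher inside the PI16 subset (3576 against 8835 CPM and 322 against 13.9 CPM), and the adipogenic subset shows the reverse.

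PTX3 and CCL2 marked 11508 of the 11744 newborn fibroblast barcodes, so barcodes were ranked by the summed level of this pair and divided into 4 classes of 2936, a division added after the values had been seen. SAA3 stood at 1378 CPM (1359 to 1397) in the lowest class and at 2644, 5476 and 6670 CPM (6633 to 6706) in the next ones. SLPI stood at 90.6, 95.8, 199 and 592 CPM. Median depth over the classes was 4676, 3616, 5066 and 5971 UMIs, which does not follow the same order. Across barcodes SAA3 and SLPI did not go together (r = -0.07, n = 11744), and no gene correlated with SAA3 above the 0.25 of M-SAA3, too weak in such sparse counts to describe a pattern.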

How the data were processed

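The authors deposited raw UMI counts for every gene in every barcode, without normalisation. The submitters' processing notes name Cell Ranger 3.1.0, and the labels' protocols a 10x Genomics 3' library kit. Build and annotation are not stated in the labels or headers, and no coordinates or sequences are printed. The members and gene lists were chosen with earlier results of these data known.

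Barcodes with at least 300 genes and at most 20% of UMIs from 13 mitochondrial genes were kept (14691 adult, 13710 newborn). Minimums for the markers were 10 UMIs of 3 genes for epithelium and fibroblasts, 5 UMIs of 3 genes for endothelium and 3 UMIs of 2 genes for immune lineages. No doublet caller was run. UMIs were summed per group and expressed as CPM with exact Poisson intervals, ratios have exact conditional binomial intervals, and shares Clopper-Pearson intervals. A gene was called from 4-fold upwards where the group with more of it held 50 CPM and 20 UMIs or more, and a count of 0 is limited by 3 UMIs. Named genes were the members, the listed defence and NF-kB genes past these limits (up to 10 in each direction), and for each member the 3 genes closest in r over adult groups. For shares across depths, barcodes were thinned to 1000 UMIs (seed 1), which left out 18 luminal, 187 T or NK, 21 adult fibroblast, 354 neutrophil and 465 newborn fibroblast barcodes. The calling step was tested on simulated data. Python 3.11.15, numpy 2.4.6, scipy 1.17.1 and pandas 2.3.3 were used.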

Additional observations from a re-analysis of the deposited data

Results flagged for a closer look

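Barcodes that passed no marker limit entered no comparison, yet held the genes above the level of T or NK barcodes of the same library. The 2505 such adult barcodes (median 1776 UMIs, 8.58% milk protein UMIs) held LTF at 359 CPM, LPO at 23.3 CPM, LCN2 at 95.6 CPM, SAA3 at 53.6 CPM and WFDC2 at 43.6 CPM. T or NK barcodes (median 2837 UMIs, 2.34% milk protein UMIs) held 167, 6.88, 51.4, 27.9 and 25.4 CPM. Their LTF count per LCN2 UMI was 3.75, against 3.25 in T or NK and 2.01 in luminal barcodes. The 9 epithelial genes not used for assignment stood at 257 CPM in them, against 154 CPM in T or NK and 3318 CPM in luminal barcodes. The part of depth and milk RNA in these levels was not tested.

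The 1341 newborn barcodes that passed no limit held SAA3 at 4446 CPM (4347 to 4547) in sum, close to the 4344 CPM of newborn fibroblasts and far above the 94.3 CPM of newborn T or NK barcodes. Barcode by barcode they were lower than fibroblasts, with a UMI in 35.1% against 55.2% and a 90th percentile of 2225 against 10151 CPM. Their highest barcode stood at 160249 CPM. Their median depth was 928 UMIs, and 10 fibroblast genes not used for assignment stood at 930 CPM in them, against 4206 CPM in fibroblasts and 160 CPM in T or NK barcodes. SLPI stood at 27.9 CPM, against 277 CPM in fibroblasts.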

How the results depend on the processing

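Each stage is 1 library, so depth per group and not replicate error bounds these values. No paired analysis was possible because each stage has 1 library, and no library could be left out. Settings varied the cell filter, marker minimums, barcodes of several lineages, scaling, the milk-secreting rule, thinning and expression limits. Leaving out barcode sequences found in both libraries, barcodes with both luminal marker sets, or the 3 adult fibroblast barcodes highest in SAA3 or SLPI was added after seeing the data. Over the settings run for 22 ratios, 20 kept their direction, and of 214 values 107 stayed within counting error, 102 moved further and 5 reversed. Part of the 107 could not move. The changes of totals and scaling were not applied to ratios between subsets of luminal or of newborn fibroblast barcodes. The milk-secreting rule does not enter the ratios of fibroblasts. The reversed log2 ratios of luminal over milk-secreting barcodes were, for LTF, -0.71 with milk protein genes left out and -0.88 with median of ratios scaling. For SLPI they were -0.87, -1.04 and, with the milk-secreting rule at a 20% milk share, -0.12.

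Counts of genes past 4-fold moved most with scaling and limits. From 1402 higher in luminal barcodes they went to 177 with milk protein genes left out, 153 with median of ratios scaling and 4217 with limits of 10 CPM and 10 UMIs. From 37 higher in milk-secreting barcodes they went to 147 (140 without the 7 milk protein genes themselves), 178 and 63. The 498 genes higher in luminal than T or NK barcodes became 1381 with the lower limits. In fibroblasts the 95 genes higher in the newborn became 224 with median of ratios scaling and 193 with the lower limits, and the 208 higher in the adult became 67 and 738. Median of ratios scaling moved the median log2 ratio of all genes from -0.49 to 0.48 in this comparison and from 2.19 to -0.16 between luminal and milk-secreting barcodes.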
